A study of Mus musculus with 12 samples.

Results

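Cells from MC38 tumors grown in CC036 F1 mice (C57BL/6J x CC036) were compared between a single dose of anti-PD-1 antibody (aPD1) and isotype control antibody. CC036 is a Collaborative Cross strain, an inbred line made from several founder strains, and MC38 is a mouse colon carcinoma line of C57BL/6 origin. The cells were chosen by the strain recorded for each cell, which gave 9939 CC036 F1 cells (4386 isotype and 5553 aPD1) of 93126 cells in the series. They came from 6 tumors of 48, each from 1 mouse, with 3 tumors per treatment. Every mouse was a female of 8 to 12 weeks and received MC38 cells under the skin. When tumors measured 75 to 110 mm3, mice were given 200 µg of clone 2A3 (isotype) or clone 29F.1A12 (aPD1) intraperitoneally, and tumors were taken 48 h later. Live cells were sorted to 90% CD45+ and 10% CD45-, so the share of immune cells in a tumor was set by the sort, and 5′ single-cell RNA-seq was run on pools of 4 tumors. The study classed CC036, CC079 and CC080 F1 mice as non-responders and CC001, CC002 and CC075 F1 mice as responders from tumor growth under treatment. The comparison therefore asks what a dose of aPD1 changed within 2 days in tumors of a strain that did not respond. Tumors of C57BL/6J (B6) and CC007 F1 mice were placed in neither class here. They entered the fits for the shared spread where a pair had enough cells, among them a CC007 aPD1 tumor of 53 cells.

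PD-1, encoded by Pdcd1, is an inhibitory receptor of activated T cells, and its ligand PD-L1, encoded by Cd274, is carried by macrophages, dendritic cells and tumor cells. Blocking the pair can release interferon-γ (IFN-γ) from T and NK cells. IFN-γ acts on macrophages and induces the chemokines Cxcl9 and Cxcl10, MHC class I and II genes, and GTPases that act against intracellular microbes. Spp1 (osteopontin) is commonly high in macrophages with a hypoxic or matrix-remodelling program.

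Each CC036 library held 1 isotype and 1 aPD1 tumor, marked by antibodies that carry a DNA barcode (hashtag). These 4 barcodes are shown because they alone tell the treatments apart within a library:
C0301: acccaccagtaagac
C0302: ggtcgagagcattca
C0303: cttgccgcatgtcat
C0304: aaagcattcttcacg
C0301 marked the isotype tumor of pool 8, and C0303 the isotype tumors of pools 9 and 10. C0302 marked the aPD1 tumor of pool 8, and C0304 those of pools 9 and 10. Across all strains C0301 and C0303 marked only isotype tumors and C0302 and C0304 only aPD1 tumors, so hashtag and treatment cannot be told apart. The other 2 tumors of a pool were from B6 mice in pool 8 and from CC075 F1 mice in pools 9 and 10.

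The isotype tumor of pool 8 stood apart from the other 5. It gave 833 cells with a median of 2258 unique molecular identifiers (UMIs) per cell, against 1725 to 1945 cells and medians of 3414 to 4036 in the others. T and NK cells made up 45.7% of its cells and monocytes and macrophages 38.8%, against 5.01 to 11.7% and 71.5 to 79.8% in the other 5 tumors. Its total was 2601337 UMIs, and the others held 7837732 to 9665628. Of 9891 distinct barcode sequences in CC036 cells, 48 were found in more than 1 CC036 library. The transcript Gm10260, which was at most 19.7 CPM (UMI counts scaled to a common library total) in B6, CC001, CC002 and CC075 tumors, lay between 543 and 808 CPM in all 6 CC036 tumors. It was also high in CC007, CC079 and CC080 tumors (338 to 1005 CPM), so it does not tell CC036 from those strains. The 7 macrophage markers together reached 7135 to 12813 CPM in the cells of the macrophage clusters. The 8 T/NK markers reached 3320 to 5192 CPM in those of the T/NK clusters. Most clusters were named from these same markers, so the sums are no separate test of the labels. Within the T/NK clusters, cluster 12 carries as many macrophage as T/NK markers (6 of each, with Lyz2 at 2866 CPM), and it gave 29 CC036 cells. Clusters 5, 14, 20 and 25 could not be named from markers and keep the study's class or their number. Share changes and per-tumor values that rest on the pool 8 isotype tumor are given with and without pool 8. The exception is the IFN-γ-high share of macrophages alone, described below, for which the change of each pair is given instead.

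The cell makeup of CC036 tumors did not differ between treatments by more than the spread between tumors. Of the study's 27 clusters, 0 passed an adjusted p of 0.05 (percent called 0; edgeR quasi-likelihood test on cells per tumor, with the library as a block), and 0 had an unadjusted p under 0.05. The smallest adjusted p was 0.967. T/NK cells made up 45.7, 7.65 and 6.67% of cells under isotype and 5.01, 11.7 and 10.3% under aPD1 in pools 8, 9 and 10. The share was lower under aPD1 in pool 8 and higher in the other pools, and the groups overlapped. The mean change was -11.0 ± 25.7 percentage points (SD, n = 3 pairs), with p = 1 by exact sign flips, a test that cannot go below 0.25 with 3 pairs. Without pool 8 it was 3.87 points. Monocytes and macrophages changed by 12.96 ± 24.6 points (p = 0.75, exact sign flips), and by -1.08 points without pool 8.

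Among the macrophage clusters, cluster 2 carries the inflammatory genes Cxcl2 and Il1b. It made up 13.1, 16.7 and 21.8% of cells under isotype and 25.9, 28.8 and 21.9% under aPD1. All 3 aPD1 tumors lay above all 3 isotype tumors, although in pool 10 the pair differed by little. Such a pattern was found in 1 of 27 clusters upwards (3.7%). The log2 fold change was 0.59 ± 0.43 (SE; unadjusted p = 0.186, adjusted p = 0.967, edgeR). Of the macrophages alone, cluster 2 made up 33.7, 21.9 and 29.5% under isotype and 32.4, 40.2 and 28.6% under aPD1, and there the groups overlapped. Cluster 25, a set of 17 CC036 cells whose leading genes include immunoglobulin and keratin genes, was the other cluster without overlap, at 0.36, 0.174 and 0.383% under isotype and 0.0545, 0.113 and 0.0514% under aPD1.

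The study's cytotoxic T lymphocyte (CTL) clusters were 3, which carries Cd8a, Pdcd1 and Lag3, and 13, which carries Ifng, Il2 and Xcl1. Cluster 3 made up 9.24, 0.812 and 1.75% of cells under isotype and 0.545, 1.07 and 0.925% under aPD1. The pool 8 isotype tumor held the one high value, and the pairs did not move the same way. Clusters 3 and 13 together changed by -3.11 ± 5.10 percentage points (p = 0.50, exact sign flips, n = 3), with an increase in 1 of 3 pairs. Without pool 8 the change was -0.17 points. Cluster 8, the regulatory T cells with Foxp3, made up 3.84, 1.04 and 0.711% under isotype and 1.14, 1.297 and 2.62% under aPD1. Within the T/NK cells it was 8.399, 13.6 and 10.7% under isotype and 22.8, 11.1 and 25.4% under aPD1, higher in 2 of 3 pairs. Cluster 9, resident-like macrophages with Lyve1, Cd163 and Folr2, held 5, 47 and 25 cells under isotype and 65, 9 and 0 under aPD1. The 0 of 1945 cells allows a share of up to 0.154%, for counting error only.

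**Figure D1:**
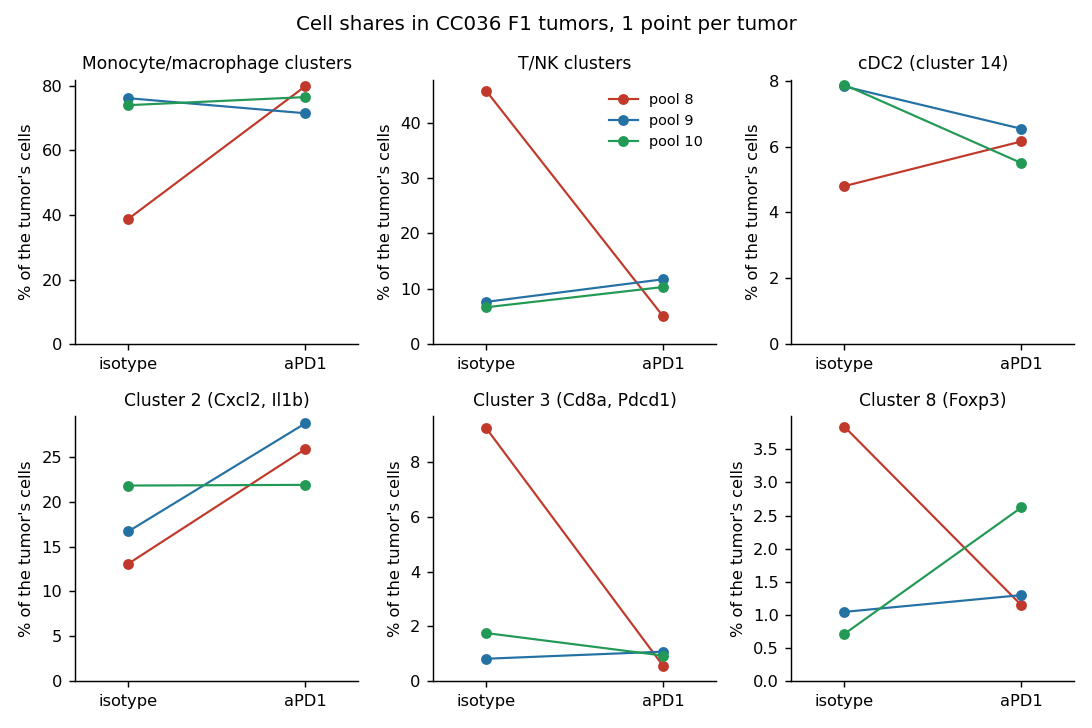
Share of a tumor's cells (%, y axis) in 3 cell classes and 3 clusters for the isotype and aPD1 tumors of CC036 F1 mice, 1 point per tumor, with lines joining tumors of the same library. The pool 8 isotype tumor holds 45.7% T/NK cells, and cluster 2 alone of the 6 panels has all 3 aPD1 tumors above the isotype tumors.

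**Figure D2:**
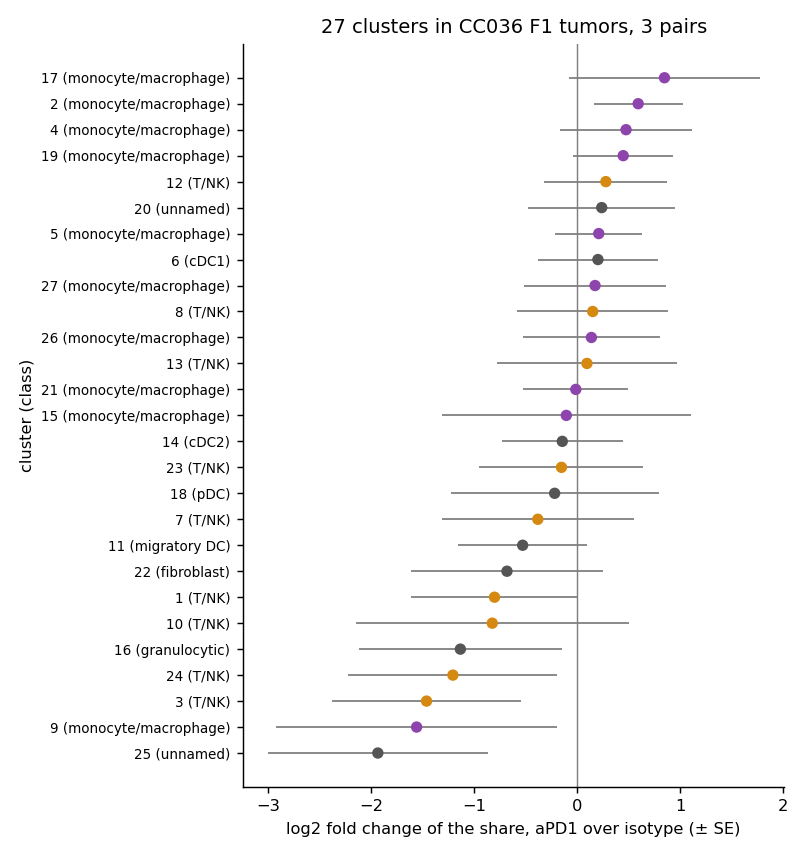
Log2 fold change of each cluster's share of cells, aPD1 over isotype, in CC036 F1 tumors (x axis; points with SE from the edgeR fit, 3 pairs), for the 27 clusters on the y axis. Purple marks monocyte/macrophage clusters, orange T/NK clusters and grey the others, and 0 clusters passed the adjusted threshold.

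The level of IFN-γ response in macrophages was next compared, as the mean log2(CPM + 1) of the 18-gene IFN-γ profile used by the study. It was 5.65, 4.46 and 5.08 under isotype and 4.84, 4.84 and 4.85 under aPD1. The isotype tumors spread to both sides of the aPD1 tumors, which lay within 0.01 of each other. The change was -0.22 ± 0.59 (SD, n = 3 pairs; p = 0.75, exact sign flips), with an increase in pool 9 alone. Without pool 8 it was 0.0768. IFN-γ-high macrophages were defined as the upper 25% of all macrophages of the series by this profile, after cells of at least 1000 UMIs were thinned to that number, and were counted as a share of all cells kept. The shallower cells left out numbered 125 of 833, 91 of 1725 and 95 of 1828 under isotype and 117 of 1835, 148 of 1773 and 126 of 1945 under aPD1. IFN-γ-high macrophages made up 9.89, 5.26 and 18.2% of these cells under isotype and 8.61, 8.25 and 11.7% under aPD1, a change of -1.59 ± 4.73 percentage points (p = 0.75, exact sign flips). This share moves with the number of macrophages in a tumor, which were 38.8% of cells in the pool 8 isotype tumor and 71.5 to 79.8% in the other 5. Counted as a share of macrophages alone, a measure chosen after seeing the data, it was 25.4, 6.78 and 24.1% under isotype and 10.5, 11.2 and 15.1% under aPD1, a change of -6.48 ± 9.90 points (p = 0.50, exact sign flips). The changes of the pairs were -14.9, 4.44 and -9.03 points in pools 8, 9 and 10, largest in pool 8. The mean of this count was not recomputed without pool 8. By both counts the IFN-γ-high share was higher under aPD1 in pool 9 alone. The log2 ratio of Cxcl9 to Spp1 over all cells was -0.44, -1.10 and -0.17 under isotype and -0.31, -0.05 and -1.91 under aPD1. It was lowest in the aPD1 tumor of pool 10, where Spp1 over all cells was 2342 CPM against 458 to 904 CPM in the other 5 tumors.

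Against the responder strains, the IFN-γ-high share differed most. It was higher under aPD1 in 10 of 10 responder pairs, by 12.6 percentage points on average, and in 1 of 3 CC036 pairs. The difference of the changes was -14.1 points (p = 0.014, exact permutation over pairs, two-sided), which did not pass after adjustment over the 6 values compared (adjusted p = 0.084). The permutations treat pairs as independent, although several pairs come from each strain and CC036 and CC075 pairs shared pools 9 and 10. Their p-values therefore do not measure the spread between strains. With the 3 MHC genes left out of the profile the difference was -7.43 points (p = 0.196, exact permutation), and the CC036 change was 1.33 points in place of -1.59. With its 7 T and NK cell genes left out it was -12.9 points (p = 0.021, exact permutation). As a share of macrophages alone the responder change was 16.2 points, with an increase in 10 of 10 pairs, and the difference was -22.6 points (p = 0.021, exact permutation). That difference was not recomputed without pool 8. For the mean profile the responder change was 0.38 with an increase in 10 of 10 pairs, and the difference was -0.60 (p = 0.056, adjusted p = 0.168, exact permutation). The Cxcl9 to Spp1 ratio differed by -1.24 (p = 0.266, exact permutation). Within the libraries that CC036 and CC075 tumors shared, the IFN-γ-high share changed by 2.98 points in CC036 and 3.70 in CC075 in pool 9, and by -6.47 and 23.3 in pool 10. The gap was thus under 1 point in pool 9 and 29.7 points in pool 10. In pool 8 it changed by -1.27 in CC036 and 9.49 in B6. Among macrophages alone the changes were -14.9 in CC036 and 7.57 in B6 in pool 8, and 4.44 in CC036 and 18.4 in CC075 in pool 9, so the small gap of pool 9 was not seen by that count. Against the other non-responder strains CC079 and CC080, none of the 6 values differed (exact permutation p 0.571 to 0.881, 3 against 6 pairs).

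**Figure D3:**
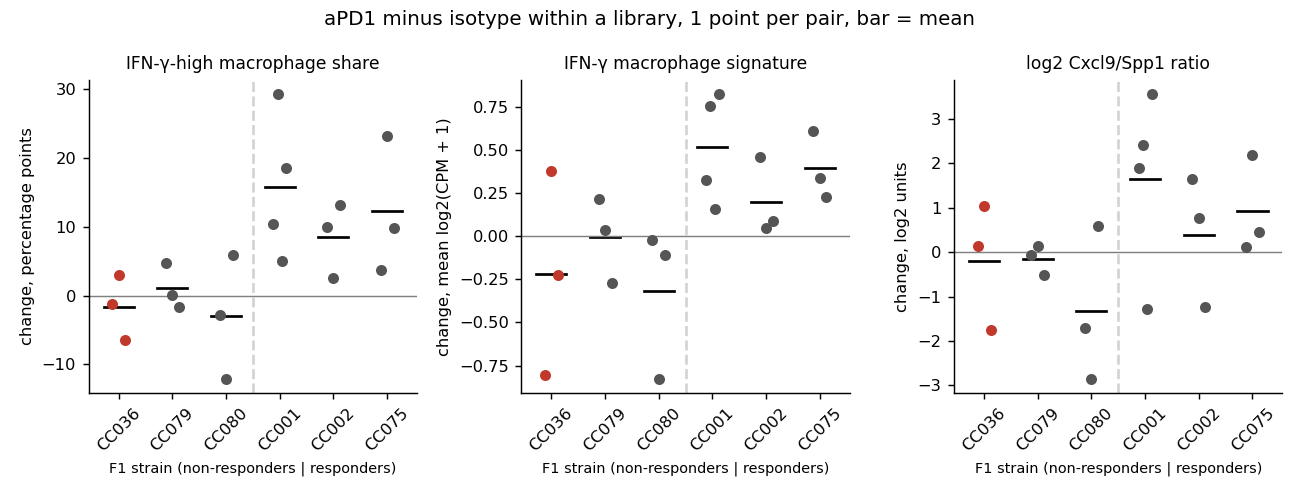
Change from isotype to aPD1 within a library for the IFN-γ-high macrophages as a share of cells kept (percentage points), the IFN-γ profile (mean log2(CPM + 1)) and the log2 Cxcl9 to Spp1 ratio, by strain (x axis), 1 point per pair with a bar at the mean and CC036 in red. The 3 CC036 pairs lie on both sides of 0 in each panel, and all 10 responder pairs lie above 0 in the first 2 panels.

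Over single genes, macrophages of CC036 tumors hardly differed between treatments. Counts were summed per tumor over the monocyte/macrophage clusters, and gene levels below are in CPM after TMM scaling. Of 13010 genes tested, 1 was higher and 0 were lower under aPD1 at an adjusted p under 0.05 (percent called 0.00769; 265 genes, 2.04%, had an unadjusted p under 0.05; edgeR quasi-likelihood test). Leaving out 1 pair raised the latter count to 490 without pool 8, 499 without pool 9 and 543 without pool 10. The gene was Ighg2b (chr12:113302965-113307933, minus strand, GRCm38), an immunoglobulin heavy chain constant gene of antibody-producing cells. It stood at 139 CPM in the aPD1 tumor of pool 9 and at 0 to 0.577 CPM in the other 5 tumors. Such a call rests on 1 tumor, and the gene is outside the naming rule and was named after its values were seen. DESeq2 called 0 genes, with 213 at an unadjusted p under 0.05.

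The genes of smallest p with the same direction in all 3 pairs did not pass. Taf1b, a subunit of the factor that starts RNA polymerase I transcription, stood at 7.67, 18.5 and 20.2 CPM under isotype and at 22.04, 23.8 and 26.6 CPM under aPD1. All aPD1 tumors were above all isotype tumors (log2 fold change 0.56 ± 0.17, SE; adjusted p = 1, edgeR). Bms1, a ribosome biogenesis factor, was at 36.4, 29.1 and 34.1 CPM under isotype and at 25.2, 24.4 and 26.4 CPM under aPD1, again without overlap (-0.37 ± 0.12; adjusted p = 1, edgeR). Over all genes tested, 1.97% were higher and 1.98% lower without overlap, so these 2 genes are members of a background of that size. The other genes of smallest p, A630072M18Rik, Gm14023, 3830403N18Rik and Dqx1 upwards and A930005H10Rik, Dnajb13, A430035B10Rik and Phactr1 downwards, were at most 6.92 CPM in every tumor.

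The genes of the PD-1 and IFN-γ axes had wide spreads in macrophages. Cxcl9, which attracts T cells through CXCR3, was at 795, 317 and 932 CPM under isotype and at 766, 542 and 673 CPM under aPD1 (0.08 ± 0.47; edgeR adjusted p = 1). Its 3 aPD1 values lay within the range of the isotype values. Spp1 was at 1260, 821 and 1131 CPM under isotype and at 1051, 568 and 3047 CPM under aPD1, with the one high value in pool 10 (0.20 ± 0.53). Cd274 was at 275, 46.9 and 160 CPM under isotype and at 172, 98.7 and 221 CPM under aPD1 (0.29 ± 0.36), and the groups overlapped. Pdcd1 and Ifng, which T cells express, were at most 0.721 and 3.83 CPM in macrophages.

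IFN-γ target genes in CC036 macrophages did not rise as a group. Of the 18 IFN-γ profile genes 14 were tested, 0 passed, and 11 had a log2 fold change below 0, with a median of -0.20 against 0.01 over all genes tested. The pairs differed in direction: aPD1 was the higher tumor for 1 of these 14 genes in pool 8, 11 in pool 9 and 2 in pool 10, against 52.7, 48.5 and 50.2% of all genes tested. The 4 members of smallest p were Lag3, Cd8a, Cd276 and Nkg7, all at most 12.5 CPM. Lag3, Cd8a and Nkg7 are genes of T and NK cells, and the 8 T/NK markers summed to 28.02 CPM in the macrophages of the pool 8 isotype tumor against 6.21 to 8.48 CPM in the other 5. Without the 7 T and NK cell genes of the profile its mean changed by -0.12 in CC036 in place of -0.22, and the IFN-γ-high share by -1.76 points in place of -1.59.

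MHC genes, which present peptides to T cells, also differed in direction between pools. For the 10 MHC class II genes the median log2 fold change was -0.05, and aPD1 was higher for 1, 8 and 2 genes in pools 8, 9 and 10. H2-Aa was at 4199.8, 1785 and 4249.9 CPM under isotype and at 2182, 3165 and 3426 CPM under aPD1, and H2-Eb1 at 2458, 1257 and 3097 CPM and at 1417, 2168 and 2332 CPM. For both, the isotype tumor of pool 9 was the lowest of the 6 and the isotype tumor of pool 10 the highest. Of the 13 MHC class I genes 12 had a log2 fold change below 0, with a median of -0.14, and aPD1 was higher for 0, 11 and 1 of them in pools 8, 9 and 10. H2-K1, a classical class I heavy chain, stood at 1136, 742 and 896 CPM under isotype and at 834, 747 and 714 CPM under aPD1 (-0.25 ± 0.16; edgeR adjusted p = 1). H2-Q7, a non-classical class I gene, was at 102, 79.5 and 97.5 CPM and at 73.7, 66.6 and 77.4 CPM, lower in all aPD1 tumors (-0.34 ± 0.26). H2-Q7 has near-identical neighbours, so its counts are uncertain.

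The IFN-inducible GTPases were measured in full, 14 of 14. Their median was -0.18, with 12 below 0 and 0 passed. The pairs differed in direction, with aPD1 higher for 0, 12 and 1 of the 14 in pools 8, 9 and 10. Iigp1 was at 139, 42.3 and 95.8 CPM under isotype and at 70.7, 30.7 and 84.3 CPM under aPD1. It was lower in each aPD1 tumor than in its isotype partner, and the groups overlapped (-0.52 ± 0.47). Tgtp2 (-0.48 ± 0.35) and Irgm1 (-0.21 ± 0.23) were lower in 2 of 3 pairs. The 13 tested type I interferon-stimulated genes, an antiviral set, all had log2 fold changes below 0, with a median of -0.58. Their sum went from 1553 to 736 CPM in pool 8, from 921 to 867 in pool 9 and from 1442 to 1346 in pool 10. In these pools aPD1 was higher for 1, 4 and 4 of the 13. Ifit1 was at 69.9, 24.2 and 48.1 CPM under isotype and at 19.1, 25.8 and 34.8 CPM under aPD1, a difference set mainly by pool 8 (-0.68 ± 0.36). Ifit3b was at 9.58, 5.91 and 10.7 CPM and at 2.63, 3.88 and 5.25 CPM, without overlap (-1.04 ± 0.58). Usp18, a brake on interferon signalling, was lower in 3 of 3 pairs (-0.58 ± 0.32), as were 7.66% of all genes tested. Leaving out each pair, its log2 fold change ran from -0.878 to -0.139. None of these genes passed (edgeR adjusted p = 1 for each).

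The test of the difference between strains bears on the same genes. Of 13010 genes, 0 had an aPD1 effect in CC036 that differed from the mean effect in CC001, CC002 and CC075 at an adjusted p under 0.05 (percent called 0; 487 genes, 3.74%, at an unadjusted p under 0.05; edgeR), and DESeq2 called 0, with 477 at an unadjusted p under 0.05. In CC036 the effect was below that of the responders for 13 of 14 IFN-γ profile genes (median difference -0.65), 10 of 10 MHC class II genes (-0.52), 13 of 13 MHC class I genes (-0.40), 14 of 14 GTPases (-0.68) and 13 of 13 type I interferon-stimulated genes (-0.67). Of all genes tested, 50.3% were below 0, with a median difference of 0.00. At an unadjusted p under 0.05 were 4, 0, 6, 4 and 2 members of the interferon and MHC lists. Of lists outside the interferon response, 12 of 12 resident-like genes (-0.25) and 11 of 12 hypoxia and glycolysis genes (-0.14) were also below 0. Several members stand in more than 1 list, and members of a list share tumors and move together, so the counts are descriptions.

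H2-K1 had the smallest p among the MHC class I genes in that comparison (difference -0.53 ± 0.18, SE; unadjusted p = 0.0071, edgeR). It was followed by B2m, the class I light chain (-0.40 ± 0.15), H2-Q7 (-0.74 ± 0.29) and H2-D1 (-0.37 ± 0.15). Ccl5, a chemokine of T cells and activated macrophages, had the smallest p of the IFN-γ profile (-1.92 ± 0.65, unadjusted p = 0.0090). H2-T23 differed by -0.59 ± 0.24. Among the GTPases, Tgtp2 (-0.98 ± 0.40), Irgm1 (-0.62 ± 0.27), Iigp1 (-1.24 ± 0.54) and Igtp (-0.68 ± 0.31) had an unadjusted p under 0.05. H2-Eb1, H2-Aa, H2-Ab1 and Cd74 differed by -0.65 ± 0.32, -0.64 ± 0.35, -0.60 ± 0.34 and -0.52 ± 0.32 (unadjusted p 0.058 to 0.12). In every one of these genes the CC036 effect was the lower, and in none did the adjusted p pass. Against CC079 and CC080, 0 of 13010 genes passed (395, 3.04%, at an unadjusted p under 0.05; DESeq2 0 and 368), and the members below 0 were 8 of 14 IFN-γ profile genes (median -0.13), 0 of 10 MHC class II genes (0.13), 11 of 13 MHC class I genes (-0.08), 8 of 14 GTPases (-0.05) and 13 of 13 type I interferon-stimulated genes (-0.48).

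**Figure D4:**
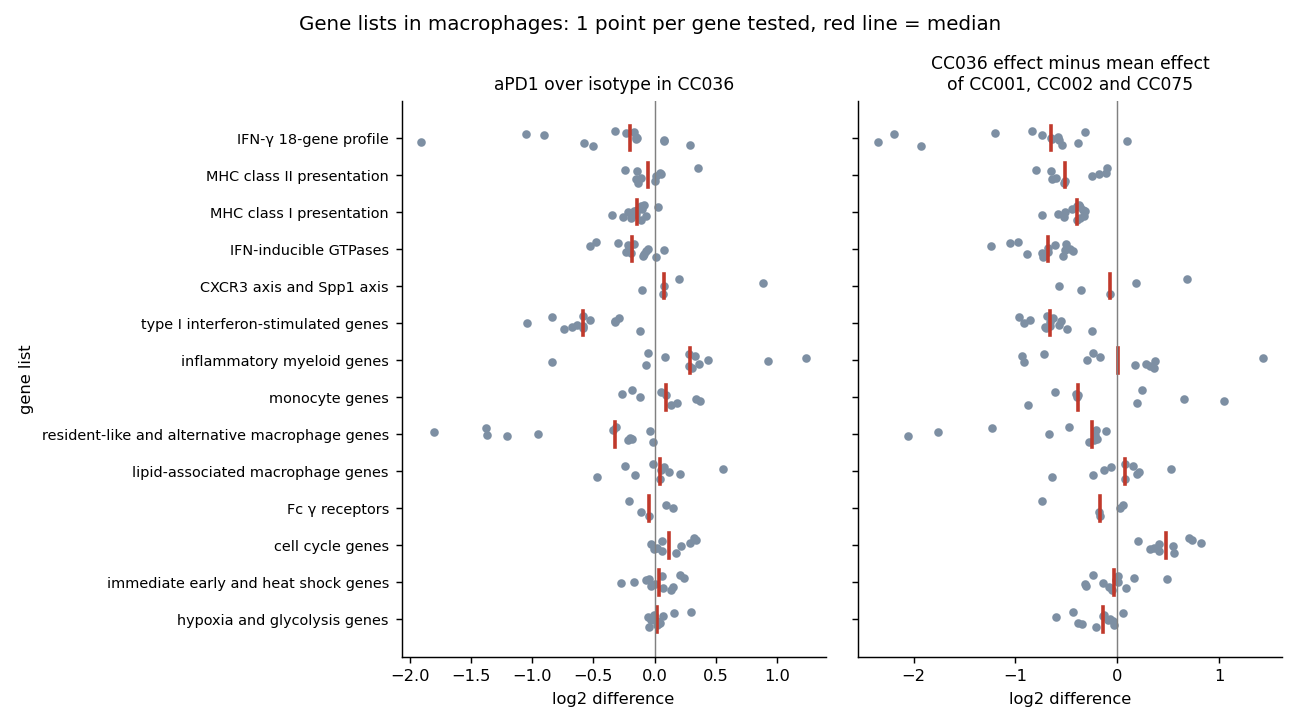
Log2 fold change of aPD1 over isotype in CC036 macrophages (left) and the CC036 effect minus the mean effect of CC001, CC002 and CC075 (right; both x axes in log2 units) for the tested genes of 14 lists (y axis), 1 point per gene with the list median in red. The interferon and MHC lists lie to the left of 0 in the right panel, with 13 of 14 or more members below 0, and 0 of the genes drawn passed the adjusted threshold in either panel.

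Of the other macrophage programs, 0 genes passed. The 12 inflammatory genes had a median log2 fold change of 0.29, with 9 above 0 and 0 passed. Il1b, the pyrogenic cytokine, stood at 1095, 465 and 971 CPM under isotype and at 1125, 1271 and 870 CPM under aPD1, a difference set by pool 9 (0.43 ± 0.44). In pool 9 clusters 2 and 4, with Il1b at 2440 and 2465 CPM over all strains, went from 21.9 to 40.2% and from 5.78 to 17.0% of macrophages. Within cluster 2 the sum of the inflammatory genes was lower under aPD1 in pool 9 (5376 to 4427 CPM) and higher in pools 8 and 10. The part of makeup in the Il1b values was not tested. Il1a was higher in 3 of 3 pairs, at 14.4, 7.501 and 16.2 CPM and at 19.5, 10.8 and 43.4 CPM (0.93 ± 0.58), as were 8.39% of all genes tested. The 12 resident-like genes all lay below 0, with a median of -0.33, but aPD1 was higher for 8 of them in pool 8 and for 2 and 1 in pools 9 and 10. The chemokine Ccl8 was at 201, 147 and 176 CPM under isotype and at 133, 135 and 19.8 CPM under aPD1, without overlap (-1.21 ± 0.83). The scavenger receptor Cd163 was at 10.5, 10.39 and 8.74 CPM and at 23.3, 2.29 and 0.553 CPM, higher under aPD1 in pool 8 and lower in pools 9 and 10. Folr2 and Lyve1 had the same directions in the 3 pools, and so did the share of cluster 9 given above. Monocyte, lipid-associated, Fcγ receptor, heat shock and hypoxia genes had medians between -0.04 and 0.09, and 0 of their members passed. In pools 8, 9 and 10, aPD1 was higher for 1, 12 and 4 of the 12 immediate early and heat shock genes, 0, 2 and 12 of the 12 hypoxia and glycolysis genes, 5, 9 and 1 of the 9 monocyte genes, 5, 2 and 8 of the 10 lipid-associated genes, and 0, 4 and 3 of the 5 Fcγ receptor genes.

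Cell cycle genes had a median of 0.12 in CC036 macrophages, with aPD1 higher for 10, 0 and 9 of 10 genes in pools 8, 9 and 10. Cluster 17, led by histone genes and with Mki67 at 572 CPM, made up 0, 5.25 and 2.66% of macrophages under isotype and 2.66, 3.00 and 3.70% under aPD1, also higher in pools 8 and 10 and lower in pool 9. The effect on the list in CC036 was above that in the responders for 10 of 10 genes (median difference 0.48) and below that in CC079 and CC080 for 10 of 10 (-0.24), with 0 at an unadjusted p under 0.05 in either. Mki67, a proliferation marker, is one of them and had an effect of 0.82 ± 0.56 above the responders' (chosen after its values were seen).

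In T and NK cells 1 gene passed with more than 1 tumor behind it, Plaur, and it did not pass without cluster 12. Of 9736 genes tested, 1 was higher and 1 lower under aPD1 at an adjusted p under 0.05 (percent called 0.0205; 416 genes, 4.27%, at an unadjusted p under 0.05; edgeR quasi-likelihood test). Plaur (chr7:24462484-24475968, plus strand, GRCm38) encodes the urokinase receptor, which many activated leukocytes, myeloid cells above all, carry at the surface. It stood at 2.62, 3.19 and 0 CPM under isotype and at 39.6, 31.2 and 15.8 CPM under aPD1. Every aPD1 tumor was above every isotype tumor, a pattern shared by 3.92% of the genes tested. Plaur rose by 3.85 ± 0.74 on the log2 scale (adjusted p = 0.032, edgeR). The values rest on 3, 1 and 0 UMIs under isotype and on 11, 18 and 8 UMIs under aPD1. Without cluster 12 the UMIs were 1, 1 and 0 under isotype and 4, 4 and 4 under aPD1, and the log2 fold change was 3.19 with an adjusted p of 1 (edgeR). That fit, chosen after seeing the data, called 0 genes higher and 1 lower (388 at an unadjusted p under 0.05). Leaving out any pair ended the call (adjusted p 0.174 to 0.874) with log2 fold changes of 3.66 to 4.10, and so did DESeq2 (4.03, adjusted p = 0.20), which called 0 genes with 270 at an unadjusted p under 0.05. The other gene, Tpm3-rs7 (chr14:113314608-113316754, plus strand, GRCm38), was lower through the isotype tumor of pool 9 alone, at 92.6 CPM against 0 to 3.46 CPM elsewhere. It is outside the naming rule, carries a retrogene name and can share reads with its parent gene.

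Macrophage transcripts in the T/NK cells varied with some of these values. The 7 macrophage markers summed to 149, 189 and 600 CPM in the T/NK cells under isotype and to 279, 744 and 600 CPM under aPD1, higher under aPD1 in pools 8 and 9 and level in pool 10. Cluster 12 made up 0.787, 3.03 and 3.28% of T/NK cells under isotype and 3.26, 4.33 and 2.99% under aPD1, higher in pools 8 and 9 and lower in pool 10. Without it the markers summed to 130, 167 and 122 CPM under isotype and to 136, 135 and 176 CPM under aPD1. The Fcγ receptor gene Fcgr2b was at 8.74, 12.8 and 51.9 CPM under isotype and at 32.4, 57.1 and 81.1 CPM under aPD1 (1.27 ± 0.44; edgeR adjusted p = 1). Of the MHC class II genes 7 were tested, with a median of 1.61 against -0.02 over all genes, and 4 had an unadjusted p under 0.05. Cd74, the class II chaperone, was at 90.9, 63.9 and 225 CPM under isotype and at 115, 556 and 643 CPM under aPD1 (1.61 ± 0.53). H2-Aa was at 28.8, 25.6 and 75.7 CPM and at 21.6, 286 and 287 CPM (1.86 ± 0.66). The high values of both were the aPD1 tumors of pools 9 and 10, and none of these genes passed. Without cluster 12 the log2 fold changes were 0.642 for Cd74, -0.0425 for H2-Aa and 0.0173 for Fcgr2b. In macrophages Cd74 alone was at 3933 CPM or more.

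**Figure D5:**
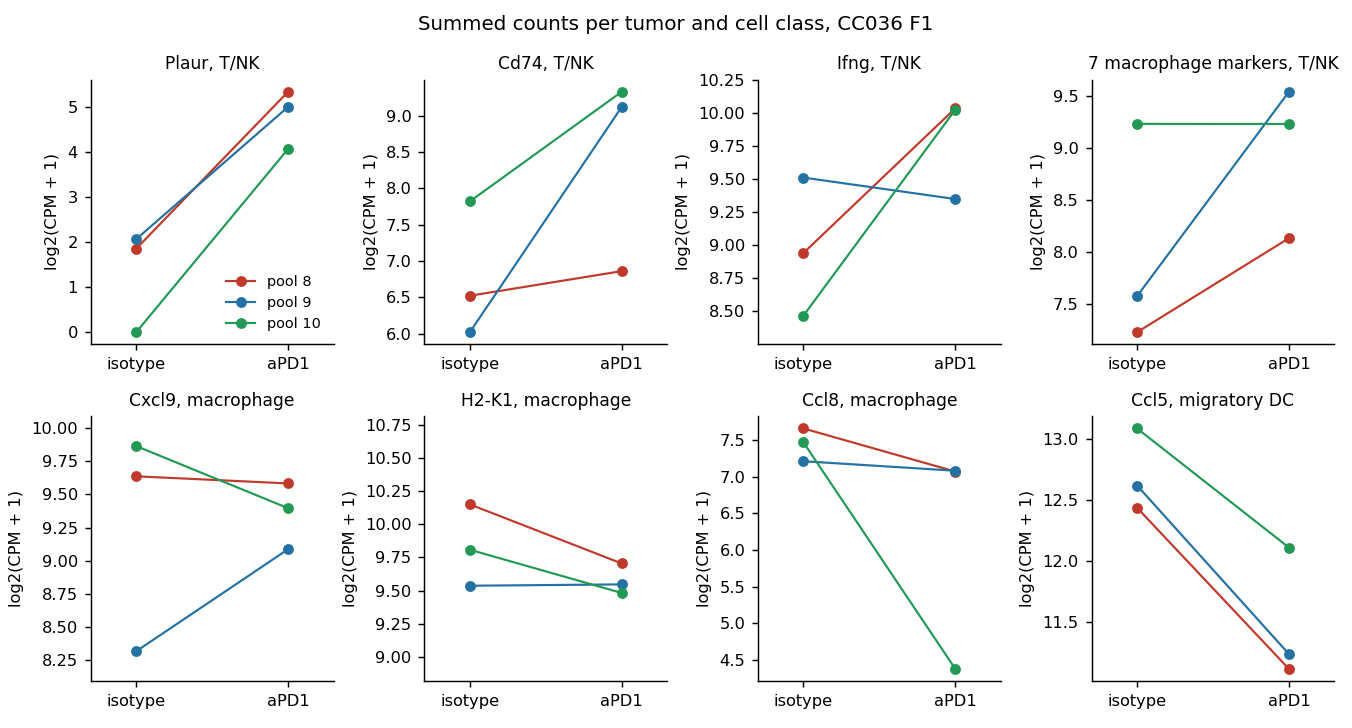
Levels (log2(CPM + 1), y axis) of 7 genes and of the sum of 7 macrophage markers in the summed T/NK cells (cluster 12 included), macrophages or migratory dendritic cells of each CC036 F1 tumor under isotype and aPD1, with lines joining tumors of the same library. Plaur (higher), Ccl8 and Ccl5 (both lower) have no overlap between treatments, and the pairs of Cxcl9 and Ifng cross. The y axes differ between panels and do not start at 0.

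The target of the antibody and its effector cytokine did not pass. Pdcd1 stood at 167, 89.4 and 158 CPM in T/NK cells under isotype and at 79.2, 79.6 and 103 CPM under aPD1. It was lower in 3 of 3 pairs, which 13.2% of all genes were, and the groups overlapped (-0.63 ± 0.41; edgeR unadjusted p = 0.139, adjusted p = 1). Cluster 3, which carries Pdcd1, made up 20.2, 10.6 and 26.2% of T/NK cells under isotype and 10.9, 9.13 and 8.96% under aPD1. Ifng was at 490, 728 and 353 CPM under isotype and at 1047, 651 and 1040 CPM under aPD1, higher in pools 8 and 10 (0.84 ± 0.68). Cluster 13, in which Ifng was at 6314 CPM over all strains and Xcl1 is a leading gene, made up 1.57, 6.06 and 2.46% of T/NK cells under isotype and 8.70, 2.88 and 4.98% under aPD1, with the same directions. These shares rest on 6, 8 and 3 cells under isotype and 8, 6 and 10 under aPD1. Of all cells, cluster 13 made up 0.720, 0.464 and 0.164% under isotype and 0.436, 0.338 and 0.514% under aPD1. By that count it was higher under aPD1 in pool 10 alone. Cd274 (0.35 ± 0.26), Cxcl9 (0.77 ± 1.22) and Spp1 (1.16 ± 0.79) overlapped between the groups in T/NK cells.

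The regulatory T cell list had 10 of 10 genes above 0 in T/NK cells, with a median of 0.94 and 2 at an unadjusted p under 0.05. By pool, aPD1 was higher for 9, 3 and 10 of them in pools 8, 9 and 10. Tnfrsf18, which encodes the costimulatory receptor GITR, was at 151, 160 and 234 CPM under isotype and at 202, 173 and 467 CPM under aPD1 (0.55 ± 0.23). Il10 was at 11.4, 25.6 and 0 CPM and at 79.2, 12.1 and 136 CPM (2.71 ± 1.09), and Il2ra, the high-affinity IL-2 receptor chain, at 114, 268 and 130 CPM and at 342, 194 and 427 CPM (0.97 ± 0.47). Both were higher in pools 8 and 10 and lower in pool 9, as was the share of cluster 8 among T/NK cells. Ccr8 was higher in 3 of 3 pairs (0.92 ± 0.47), as were 10.9% of all genes tested.

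Of the 16 T cell activation genes, 13 lay above 0 with a median of 0.35, and 0 had an unadjusted p under 0.05. By pool, aPD1 was higher for 10, 4 and 12 of the 16 in pools 8, 9 and 10. Xcl1, a chemokine for cross-presenting dendritic cells, was at 214, 1632 and 513 CPM under isotype and at 2635, 1040.1 and 1271 CPM under aPD1, higher in pools 8 and 10 (1.39 ± 0.95). Tnfrsf9, which encodes 4-1BB, had the same pattern at a smaller size (0.30 ± 0.22). Il2 was lower in 3 of 3 pairs (-2.14 ± 1.57). The 10 checkpoint genes had a median of 0.04. The 10 cell cycle genes all lay below 0 (median -0.44), led by Cdk1 (-0.93 ± 0.48) and Pcna (-0.34 ± 0.19). By pool, aPD1 was higher for 4, 5 and 0 of the 10 in pools 8, 9 and 10. The CC036 effect was below the responders' for 10 of 10 (median difference -0.78), against 53.7% of all genes tested. It was below that in CC079 and CC080 for 10 of 10 (-0.74), against 46.8%. At an unadjusted p under 0.05 (edgeR) were 3 and 2 of these genes. The 9 naive and memory genes had a median of -0.38. Slamf6, a receptor of memory-like T cells, was at 37.6, 76.7 and 49.8 CPM under isotype and at 10.8, 27.7 and 33.6 CPM under aPD1. The groups did not overlap, and 4.13% of all genes were lower in that way. None of the genes of these lists passed.

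Against the responders' effect in T/NK cells, 0 of 9736 genes passed (percent called 0; 478 genes, 4.91%, at an unadjusted p under 0.05, edgeR; DESeq2 0 and 295), and against CC079 and CC080 likewise 0 (420 genes, 4.31%; DESeq2 0 and 263). The difference for Plaur was 3.91 from the responders (unadjusted p = 2.0e-05, adjusted p = 0.157, edgeR) and 2.91 from CC079 and CC080 (unadjusted p = 0.0020). Plaur was chosen for its call in CC036, and the same CC036 tumors enter these differences, so they are no separate test. Without cluster 12 the smallest adjusted p of any gene against the responders was 0.419 (edgeR).

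Counts summed over single clusters separate a change within a cluster from a change of makeup. In 10 clusters every CC036 tumor had at least 20 cells, and 6 calls were made in these clusters together. In cluster 5, which the study counts among macrophages but whose leading genes by fold are Ighg2c, Hbb-bs, Hba-a1 and Igkc ahead of Ccr2 and Clec5a, 5 of 10381 genes passed (0.0482%), and all were immunoglobulin genes, each high in a single tumor. Igkv6-25, Ighg2b and Ighv1-82 stood at 2567, 1325 and 369 CPM in the aPD1 tumor of pool 9 and at 0 in the other 5. Igkv4-61 and Ighv1-75 stood at 574 and 345 CPM in the isotype tumor of pool 10 and at 0 in the other 5. In cluster 2, 1 of 11201 genes passed (0.00893%), Tpm3-rs7, at 59.1 CPM in the isotype tumor of pool 9 and at most 3.98 CPM elsewhere. These 6 calls were named after their values were seen. B cell markers summed to 423 CPM in the macrophages of the pool 10 isotype tumor and to 142 CPM in those of the pool 9 aPD1 tumor, against 13.01 to 50.1 CPM in the other 4. Erythroid markers summed to 261 CPM in the former and to at most 2.60 CPM in the other 5. The other 8 clusters had 0 calls each. The share of genes at an unadjusted p under 0.05 was 2.76% in cluster 2, 3.23% in cluster 5, 5.59% in cluster 7, 2.1% in cluster 19, 3.76% in cluster 26 and 3.25% in cluster 27.

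Migratory dendritic cells (cluster 11, with Ccr7 and Fscn1) came nearest to a further call. Ccl5 stood at 5530.3, 6276 and 8677 CPM under isotype and at 2215, 2410.4 and 4413 CPM under aPD1. Each aPD1 tumor was below its isotype partner and the groups did not overlap, as for 5.53% of the 4464 genes tested in the lower direction and 4.41% in the higher. The log2 fold change was -1.22 ± 0.23 (unadjusted p = 2.5e-05, adjusted p = 0.110, edgeR), and each tumor gave 25 to 34 such cells. In a fit of the 6 CC036 tumors alone with the library as a block the adjusted p was 7.3e-05, and without the block 0.458. Serpinb1a, a protease inhibitor, was at 91.8, 56.2 and 210 CPM and at 14.2, 9.20 and 13.7 CPM (-3.19 ± 0.69; edgeR adjusted p = 0.264). Tnfsf4, which encodes the costimulatory ligand OX40L, was at 16.7, 0 and 22.1 CPM and at 113, 55.2 and 68.7 CPM (2.48 ± 0.72). Bcl2l1, a survival gene, was at 41.7, 28.1 and 33.2 CPM and at 63.7, 175 and 103 CPM (1.67 ± 0.46). Cxcl9 was at 167, 119 and 38.7 CPM and at 1719.7, 82.8 and 749 CPM, higher in pools 8 and 10 (2.70 ± 1.12), and Cd274 at 834, 710 and 603 CPM and at 778, 736 and 1739 CPM (0.52 ± 0.26). Of the 4464 genes 0 passed, and 240 (5.38%) had an unadjusted p under 0.05.

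Cluster 14 was led by Cd209a and Cd209c. The study lists it as Cd209a+ dendritic cells, and its markers did not settle a name here. In this cluster 0 of 9323 genes passed and 217 (2.33%) had an unadjusted p under 0.05. Gpr171, a receptor that also restrains T cells, was at 74.2, 60.3 and 94.2 CPM under isotype and at 104, 111 and 153 CPM under aPD1 (0.71 ± 0.19), and the endosomal GTPase gene Rab7 at 102, 106 and 121 CPM and at 144, 150 and 187 CPM (0.55 ± 0.19). Cdk14 was at 113, 113 and 80.5 CPM and at 68.6, 41.8 and 59.2 CPM (-0.86 ± 0.24). None of the 3 overlapped between treatments, as for 3.28% of the genes tested upwards and 3.46% downwards, and none passed (edgeR adjusted p = 1).

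In the monocytes of cluster 4, with Ace and Chil3, the chemokine gene Ccl3 was at 88.4, 50.5 and 36.8 CPM under isotype and at 124, 129 and 428 CPM under aPD1 (2.15 ± 0.51), and Nos2, the inducible nitric oxide synthase, at 0, 0 and 2.05 CPM and at 11.9, 3.88 and 120 CPM (5.48 ± 1.41). Both were highest in the aPD1 tumor of pool 10. Cluster 4 held 38, 76 and 138 cells under isotype and 132, 216 and 89 under aPD1. With so few cells the Nos2 values of 0 to 3.88 CPM lie near the floor, so its fold change and lack of overlap are uncertain. B3gnt5 was at 29.5, 25.3 and 18.4 CPM and at 66.5, 58.2 and 68.0 CPM (1.47 ± 0.44), and Cd209a, a dendritic cell lectin, at 19.6, 46.3 and 32.8 CPM and at 0, 5.17 and 8.00 CPM (-2.91 ± 0.85). None of the 4 overlapped between treatments, as for 3.74% of the genes tested upwards and 3.59% downwards, and 0 of 6661 genes passed, with 207 (3.11%) at an unadjusted p under 0.05 (edgeR). In cluster 2, Tnfsf9, the ligand of 4-1BB, was at 16.3, 30.6 and 29.3 CPM and at 28.6, 34.2 and 94.7 CPM (1.01 ± 0.26; edgeR adjusted p = 1), and the groups overlapped.

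Counts were also summed over the dendritic cell clusters together. Of 10843 genes 2 passed (percent called 0.0184; 272 genes, 2.51%, at an unadjusted p under 0.05; edgeR), Ighg2b and Igkv6-25, which stood at 887 and 363 CPM in the aPD1 tumor of pool 9 and at no more than 1.963 CPM in the other 5. They are the immunoglobulin genes of the same tumor as in cluster 5. Ahr, the aryl hydrocarbon receptor, was at 74.0, 69.0 and 79.6 CPM under isotype and at 104, 156 and 175 CPM under aPD1 (0.98 ± 0.24; edgeR adjusted p = 0.510). The transcription factor gene Tbx21 was at 11.6, 2.20 and 4.36 CPM and at 21.4, 12.6 and 24.5 CPM (1.99 ± 0.48; edgeR adjusted p = 0.510). Both were higher in every aPD1 tumor, a pattern of 2.99% of the genes tested (3.29% lower), and neither passed. Lower in 3 of 3 pairs were 9.67% of the genes. Over all cells of a tumor 0 of 15137 genes passed, with 458 (3.03%) at an unadjusted p under 0.05 (edgeR). There 2.79% of genes were higher and 2.2% lower without overlap, and 9.92% were higher and 7.41% lower in 3 of 3 pairs. DESeq2 was not run on these sums or on single clusters.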

How the data were processed

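Gene counts were UMI counts per cell, deposited by the authors after Cell Ranger, alignment to GRCm38 with GENCODE vM23 and Seurat 5.0.1, together with each cell's strain, treatment, library and cluster. Per the study's methods, cells with over 15% mitochondrial or 45% ribosomal reads had been removed, and clusters were made after harmony on processing date. No doublet caller was run here. The authors' assignment of cells to clusters was used as given. Most clusters were named here from markers, so a name can differ from the authors'. Coordinates are from GENCODE vM21 on the same build.

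Groups came from the sample labels, and the replicate was the tumor. Counts were summed per tumor over the monocyte/macrophage clusters, the T/NK clusters and each cluster with at least 20 cells in every CC036 tumor. Pairs in which both tumors had enough cells were fitted in edgeR 4.0.16 (R 4.3.3; filterByExpr, TMM, robust quasi-likelihood), with strain and pool pairs as blocks and 1 treatment effect per strain: 48 tumors (24 pairs) for macrophages and all cells, 46 (23 pairs) for T/NK and dendritic cells, and 30 to 46 for single clusters, the fewest in cluster 11. The 6 CC036 tumors were in every fit, with Benjamini-Hochberg adjustment over all genes tested. Cells per cluster were tested in the same way. The SE of a log2 fold change is its absolute value over the square root of the edgeR F statistic. It is approximate, above all where a group has no counts. Gene CPM are on TMM-scaled totals, and marker sums on raw totals. Per-tumor values were tested by exact sign flips and exact permutations (two-sided, scipy 1.17.1). No label names separate cultures or donors beyond the mouse, and p-values measure the spread between tumors or between pairs of tumors, not between strains. The pairing comes from the labels, since tumors of a pool shared a library. Deviations of same-pool tumors correlated at 0.0926, 0.0232 and 0.205 in macrophages and 0.122, 0.159 and 0.211 in T/NK cells, and those of other pools at -0.262 to 0.126 and -0.151 to 0.0131.

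Named genes were those passing with the same direction in 3 pairs, at most 10 a direction by fold, otherwise the 5 of smallest p with that direction, plus at most 4 members per gene list by p and Pdcd1, Cd274, Ifng, Cxcl9 and Spp1. The comparison, the lists and the clusters were chosen with earlier results of these data known. Alternatives were DESeq2 1.42.0, other filters and scalings, no block, CC036 tumors alone, leaving out each pair and, chosen after seeing the data, leaving out cluster 5, cluster 12 or pairs with a tumor of under 500 cells. Simulated counts were drawn from 1 common profile without strain or pair effects. In them 200 genes with a mean of at least 10 counts were changed. The macrophage fit found 67% of genes changed by 1 on the log2 scale and 90% of those changed by 2. The T/NK fit found 47 and 87%. The fits called 3 of 12331 and 8 of 8720 unchanged genes. The adjusted threshold is looser where many genes are changed, so these counts cannot be set against the calls in the real data. Intervals and limits from counts cover counting error only. Some genes that the rule names are not reported here. The other strains, B6 and CC007 F1 included, were used only for the shared spread and the named differences.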

Additional observations from a re-analysis of the deposited data

Results flagged for a closer look

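The change in IFN-γ-high macrophages, as a share of cells of at least 1000 UMIs, under aPD1 differed between CC036 and the responder strains by -14.1 percentage points, which the test of the difference itself put forward (p = 0.014, exact permutation over 3 and 10 pairs). It was lower in 2 of 3 CC036 pairs and higher in 10 of 10 responder pairs. It did not pass after adjustment over the 6 values compared (adjusted p = 0.084). The permutation treats pairs as independent and does not measure the spread between strains. The exact permutation p was 0.0606 without pool 8, 0.0303 without pool 9 and 0.0606 without pool 10, and without the 3 MHC genes of the profile the difference was -7.43 points (p = 0.196, exact permutation). As a share of macrophages alone, chosen after seeing the data, it was -22.6 points (p = 0.021, exact permutation), which was not recomputed without pool 8.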

How the results depend on the processing

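The 1 macrophage gene became 0 with DESeq2, without cluster 5 and in CC036 tumors alone with or without the block, 3 with at least 50 cells, 2 without pairs holding a tumor of under 500 cells and 34 with no filter on low counts. The 2 T/NK genes became 0 with DESeq2 and in CC036 tumors alone, 4 with no filter and 1 without cluster 12, where Plaur no longer passed and H2-Aa and Cxcl9 turned to -0.0425 and -0.742. The 6 calls in single clusters became 103 with no filter, and 0 without and 1 with the block in CC036 tumors alone. With no replicate block in place of the pairing by library, the counts were 0 in macrophages, 0 in T/NK cells and 1 in single clusters, and Cxcl9 in macrophages turned to -0.0427 (-0.0469 in CC036 tumors alone). With no filter the difference from the responders gave 101 macrophage and 4 T/NK genes, and that from CC079 and CC080 34 macrophage genes. The cause was not tested. Leaving out each pair gave 1 to 3 macrophage genes, 0 to 1 T/NK genes, 6 to 12 single-cluster calls, and 0 to 4 and 0 to 2 macrophage genes for these differences.

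Leaving out each pair moved the T/NK share change from -18.5 to 3.87 points (minus responders -19.4 to 3.03, minus CC079 and CC080 -11.3 to 11.1), the macrophage share from -1.08 to 21.8 (-0.937 to 21.9 and -11.1 to 11.8), and the CTL share from -4.73 to -0.17 (-3.63 to 0.933 and -3.73 to 0.827). The IFN-γ profile ran from -0.516 to 0.0768 (-0.899 to -0.306 and -0.353 to 0.240), the IFN-γ-high share from -3.87 to 0.855 (-16.4 to -11.7 and -2.91 to 1.82), and the Cxcl9 to Spp1 ratio from -0.808 to 0.587 (against CC079 and CC080 -0.0662 to 1.33). The first 3 and the profile turned or were smallest without pool 8, the IFN-γ-high share and the ratio turned without pool 10, and the ratio against CC079 and CC080 turned without pool 9. Without the 3 MHC genes the IFN-γ-high change was 1.33, -7.43 minus responders and 2.51 minus CC079 and CC080. With the full profile but as a share of macrophages, these values were -6.48, -22.6 and -2.75. The profile's difference from responders was -0.601 without the 3 MHC genes and -0.433 with a pseudocount of 10 CPM (exact permutation p = 0.049 for each). Without cluster 5, Cxcl9 and Pdcd1 in macrophages were -0.035 and -0.0751.

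Leaving out each pair, log2 fold changes in macrophages ran from -0.523 to 0.0855 for Irgm1, -0.624 to 0.268 for H2-Aa, -0.598 to 0.199 for H2-Eb1 and -1.44 to 0.364 for Ifng (highest without pool 8), from -0.261 to 0.380 for Cxcl9, -0.0838 to 0.771 for Cd274 and -0.0577 to 0.766 for Il1b (lowest without pool 9), and from -0.213 to 0.0901 for Cxcl10, -0.379 to 0.593 for Spp1 and -0.941 to 4.43 for Pdcd1 (turned without pool 10, and Pdcd1 also without pool 8, at -0.0393). In T/NK cells they ran from -0.237 to 0.880 for Cd274 and -0.154 to 2.32 for Spp1, in cluster 11 from -0.0277 to 0.840 for Cd274, and in cluster 2 from -3.59 to 0.219 for Tpm3-rs7. With 3 pairs, changes near 1 on the log2 scale can be missed, most in T/NK cells at 92 to 381 cells a tumor.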

Other observations

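Cluster 20 was unnamed and led by Kirrel3, Rhox5 and Tenm3. Over all strains Shisal2b, the study's marker of MC38 cells, stood at 97.8 CPM in it and at most 6.56 CPM in any other cluster. The epithelial genes Krt8 and Epcam were at 0.44 CPM there, and the fibroblast markers Col3a1 and Dcn at 854 and 501 CPM. The fibroblast markers Col1a1, Col1a2, Bgn, Postn and Pdgfrb were low there, at 9.52, 1.07, 4.06, 0.3 and 16.2 CPM. In cluster 22, named as fibroblasts, they were at 3567, 2091, 897, 818 and 391 CPM. In cluster 20, 1191 of 7475 genes (15.9%) had an unadjusted p under 0.05 and 0 passed (edgeR). The count was 763 without pool 8, 1690 without pool 9 and 380 without pool 10. Samd4 was listed at 0 UMIs in all 3 isotype tumors, which gave 29, 72 and 68 cells of this cluster. It stood at 61.5, 51.2 and 63.4 CPM under aPD1 (adjusted p = 0.161, edgeR). Plk3, a stress-response kinase, was at 131, 93.5 and 66.8 CPM under isotype and at 16.4, 32.6 and 9.23 CPM under aPD1. Neither gene overlapped between treatments, as for 12.2% of the genes tested upwards and 6.05% downwards.

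In cluster 27, Tppp3 was at 128, 28.8 and 56.9 CPM under isotype and at 47.2, 0 and 7.38 CPM under aPD1 (adjusted p = 0.226, edgeR), and the groups overlapped. In cluster 26, Ing4 was at 16.4, 19.9 and 23.7 CPM and at 26.4, 44.1 and 38.1 CPM, without overlap, as for 4.2% of the genes tested. In cluster 7, Tyrobp, a signalling adaptor of NK and myeloid cells, was at 71.0, 260 and 345 CPM and at 25.1, 66.4 and 99.3 CPM, lower in 3 of 3 pairs, as were 12.5% of the genes tested.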
